A study of Mus musculus with 16 samples.

Results

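Cbs and 9 other genes of transsulfuration, the methionine cycle, serine synthesis and folate one-carbon metabolism were followed across 16 mouse hippocampal RNA sequencing libraries. The 10 genes, among 49315 in the count table, were Cbs, Cth, Mat2a, Ahcy, Phgdh, Psat1, Psph, Shmt1, Shmt2 and Mthfd2, and all 10 were among the 17469 genes with enough counts to test. They were chosen by pathway with measured values in view, because Cbs was known to have risen in knockouts given the ketogenic diet. The comparison of diets within the knockout is therefore given as a description. Its p-values appear only in counts, in the choice of which list genes are named and in the account of alternative settings. The size of its differences beside their errors also set the choice of Cbs and Psat1 for the promoters shown. Nothing else is read from either. The libraries came from hippocampus of wild type (WT) mice and of mice lacking Kcna1 (KO), a voltage-gated potassium channel gene whose loss gives a mouse model of epilepsy. Each genotype was sampled on the standard and on the ketogenic diet, a diet high in fat and low in carbohydrate, with 4 animals in each of the 4 groups. The labels give no strain, age, sex, promoter or Cre line, and no composition or length of either diet.

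These enzymes form a junction between sulfur amino acids and serine. Mat2a makes S-adenosylmethionine, the methyl donor of the cell, and Ahcy turns the spent donor into homocysteine. Cbs joins homocysteine to serine to form cystathionine, and Cth splits cystathionine to cysteine, a building block of glutathione; Cbs and Cth also produce hydrogen sulfide. Phgdh, Psat1 and Psph act in turn to make serine from a glycolytic intermediate, a pathway that in brain runs mainly in astrocytes and supplies neurons with serine. Shmt1 in the cytosol and Shmt2 in mitochondria pass a carbon of serine to folate, and Mthfd2 carries it on in mitochondria. ATF4, a transcription factor of the response to amino acid shortage and mitochondrial stress, is known to switch on many genes of serine and mitochondrial folate metabolism.

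Total counts per library ranged from 13440230 to 22309504. Kcna1 measured 107 to 130 CPM (counts scaled to a common effective library size) in WT libraries and 43.4 to 47.2 CPM in 7 KO libraries. The library labelled KO on the standard diet KC888LL measured 82.0 CPM, outside both ranges. All 8 hippocampal markers examined were detected in every library. Y-linked Ddx3y was expressed in KC890RL, KC872RL, KC873RR and KC846L, which left 2 female-pattern libraries in KO on the standard diet and 4 in KO on the ketogenic diet. Gfap, an astrocyte filament gene, measured 294 to 390 CPM in the 8 WT libraries and 288 to 2327 CPM in the 8 KO libraries.

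Because Cbs and Psat1 are the members whose difference between the KO groups was largest beside its error, the bases before their transcription starts are shown with those of Mthfd2 and Shmt2, which were highest in 1 library described below. The sequences are RefSeq's (GRCm38.p6, 5′ to 3′ on the minus strand), and 9 of the 10 members had one. They lie at chr17:31637239-31637455 for Cbs, chr19:15925060-15925179 for Psat1, chr6:83317607-83317724 for Mthfd2 and chr10:127522445-127522564 for Shmt2. Bases that GENCODE M21 places in an exon are left out. Capitals mark CCAAT, and in Cbs also GGGCGG and CACGTG, on either strand.
Cbs: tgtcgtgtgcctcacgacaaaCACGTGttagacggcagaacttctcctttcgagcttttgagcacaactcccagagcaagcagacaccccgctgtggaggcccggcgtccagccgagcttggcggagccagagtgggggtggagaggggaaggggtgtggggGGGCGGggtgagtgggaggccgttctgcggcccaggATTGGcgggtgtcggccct
Psat1: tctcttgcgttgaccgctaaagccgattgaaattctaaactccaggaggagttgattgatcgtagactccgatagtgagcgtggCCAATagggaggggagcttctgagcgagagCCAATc
Mthfd2: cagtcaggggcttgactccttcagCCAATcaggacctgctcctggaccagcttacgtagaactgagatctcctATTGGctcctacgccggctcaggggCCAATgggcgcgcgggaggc
Shmt2: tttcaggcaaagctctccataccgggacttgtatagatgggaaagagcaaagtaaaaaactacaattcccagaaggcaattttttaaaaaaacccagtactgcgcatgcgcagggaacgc
Over the 250 bases before the RefSeq start, CCAAT occurred in 8 of the 9 members, all but Shmt2, and in 33.8% of 32851 mouse promoters. GGGCGG, the GC box, occurred in 5 of 9 members (Cbs, Mat2a, Ahcy, Psph and Shmt1) and in 32.7% of all promoters. CACGTG, the E-box, occurred in Cbs alone among the members, with its first base 229 bases before the start, and in 6.02% of all promoters. TGACNNNGC, the core of the antioxidant response element, occurred in Phgdh alone and in 10.2% of all promoters. These motifs do not overlap one another in Cbs, and a match is a description of letters, not of binding.

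TGATGNAA, the response element read by C/EBP-ATF dimers, was in 0 of the 9 member windows and in 3.45% of all promoters. Of 16 other genes of the ATF4 list with a promoter, 5 held it (Asns, Chac1, Nupr1, Pycr1 and Slc7a11). The sites of Asns (chr6:7693214-7693243, minus strand) and Chac1 (chr2:119351038-119351067, plus strand) are shown, because both genes are followed below, with the element in capitals on either strand.
Asns: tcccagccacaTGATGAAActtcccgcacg
Chac1: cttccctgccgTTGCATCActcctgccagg
No match says only that these letters are not in the 250 bases searched.

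Per kilobase of exon (GENCODE M21), Mat2a was the most abundant member, with a mean level over the 16 libraries of 47.7 CPM per kb. Phgdh followed at 24.8 and Psat1 at 22.4 CPM per kb. The other 7 lay lower, from Shmt2 at 6.43 and Ahcy at 4.58 through Cbs at 3.95, Psph at 3.29, Shmt1 at 2.14 and Mthfd2 at 1.67 to Cth at 1.11 CPM per kb. The serine synthesis genes Phgdh and Psat1 were thus present at several times the level of Cbs. Cth rested on 22 to 86 counts per library, so its values carry the largest counting error.

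Cbs (ENSMUSG00000024039, chr17:31608894-31637238, minus strand, GRCm38) measured 32.9 CPM in KC890RL, 28.5 in KC894RLL, 32.4 in KC897RR and 27.2 in KC900RLL, the WT libraries on the standard diet. The KO libraries on that diet held 23.3 CPM in KC872RL, 22.4 in KC873RR, 27.7 in KC888LL and 21.2 in KC893RL. Of these, 3 were below every WT library, and KC888LL, the library with the intermediate Kcna1 level, lay just inside the WT range. The means were 30.2 ± 2.85 CPM in WT and 23.6 ± 2.81 CPM in KO (SD, n = 4 each), a log2 fold change of -0.35 ± 0.09 (SE). Leaving out KC888LL gave -0.44. These values are given with no test, because the low KO values entered the diet comparison through which Cbs was chosen. In the same libraries 12 of 12 microglial markers (10 at an unadjusted p under 0.05) and 12 of 12 astrocyte markers (4 at that p) were higher in KO than in WT, with 0 called by edgeR in either list. Their sums were 284 to 324 CPM in WT against 297 to 629 CPM in KO for microglia, and 4898 to 5469 against 5071 to 7714 CPM for astrocytes. The astrocyte sums include Gfap. Of 8 neuronal markers 6 were lower in KO (4 at that p) and 2 higher (both at that p), and of 8 hippocampal markers 7 were lower (3 at that p), again with 0 called. Neuronal sums were 10160, 10480 and 11480 CPM in KC872RL, KC873RR and KC893RL, below the WT range of 11870 to 12380 CPM. In KC888LL the sum was 11890 CPM, just inside it, as for Cbs. Microglial sums were 626 and 629 CPM in KC872RL and KC873RR, where Ddx3y was expressed. They were 309 CPM in KC893RL, the lowest in Cbs, and 297 CPM in KC888LL, both inside the WT range. Blood genes were 5 of 5 higher in KO (1 at that p) and choroid plexus genes 6 of 6 lower (0 at that p). The part of any of these lists in the Cbs difference was not tested.

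In animals fed the ketogenic diet, Cbs measured 30.1 CPM in KC842L, 29.8 in KC843RL, 29.7 in KC844RR and 34.5 in KC846L, all WT. The KO libraries on that diet held 31.2 CPM in KC913RR, 35.6 in KC916RRL, 34.3 in KC934R and 31.95 in KC935LL. All 4 of these KO libraries were above all 4 KO libraries on the standard diet, and they overlapped the WT libraries of both diets. Between diets in KO the log2 fold change was 0.49 ± 0.09 (SE), or 1.41-fold, the difference by which Cbs was selected. Within WT the diets differed by 0.04 ± 0.09 on the log2 scale (95% interval -0.15 to 0.22, adjusted p over all genes 0.998 by edgeR's quasi-likelihood test with Benjamini-Hochberg adjustment), and the groups overlapped. Between genotypes on the ketogenic diet the log2 fold change was 0.10 ± 0.09, also with no test, since these KO values entered the same choice. The difference between the diet effects of the genotypes was 0.45 ± 0.12 on the log2 scale, which contains the selecting comparison and is given with no test. The order of the group means was KO on the standard diet, WT on the standard diet, WT on the ketogenic diet and KO on the ketogenic diet, and only the lowest stood apart from its neighbour by more than their SDs.

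**Figure D1:**
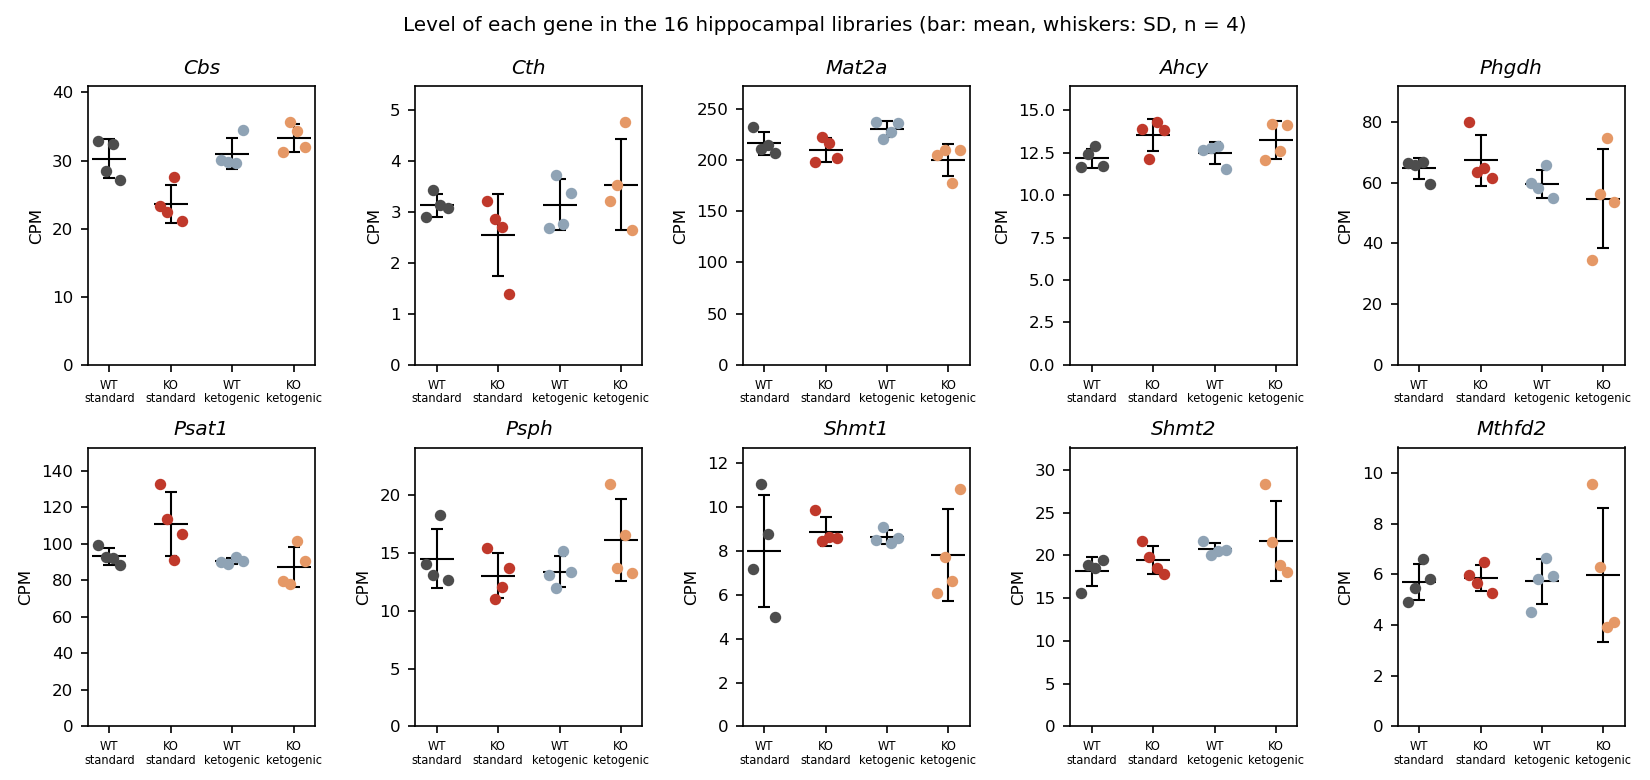
Level in CPM (vertical axes, each from 0) of the 10 genes in the 4 groups; points are libraries, the bar is the mean and whiskers are the SD (n = 4). Cbs is lowest in KO on the standard diet, with a mean of 23.6 CPM, and Psat1 is highest there, with a mean of 111 CPM.

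Values of cell type markers moved between the same libraries. Summed levels of 12 oligodendrocyte markers in KO were 3033 to 3580 CPM on the standard and 1197 to 2268 CPM on the ketogenic diet. All 12 were lower on the ketogenic diet, 12 at an unadjusted p under 0.05 and 9 called by edgeR. Their median log2 fold change was -0.87. The same 12 markers were lower on the ketogenic diet in WT (11 at an unadjusted p under 0.05, 0 called by edgeR, median -0.49), with sums of 2457 to 3922 CPM on the standard and 1988 to 2635 CPM on the ketogenic diet. Summed levels of 12 microglial markers in KO were 297 to 629 CPM on the standard and 264 to 286 CPM on the ketogenic diet. There 12 of 12 were also lower, 11 at an unadjusted p under 0.05 and 1 called. Summed levels of 12 astrocyte markers, Gfap among them, were 5071 to 7714 and 5035 to 6543 CPM in these groups. Of these, 8 were lower on the ketogenic diet (4 at that p, 1 called) and 4 higher (0 at that p). The 5 blood genes summed to 65.8 to 113 and 17.4 to 32.5 CPM, with 5 lower (5 at that p, 4 called). Of 6 choroid plexus genes 5 were lower on the ketogenic diet (1 at that p, 0 called). The 6 summed to 47.3 to 553 CPM on the standard and 32.2 to 53.2 CPM on the ketogenic diet. In the direction of Cbs, 7 of 8 hippocampal markers (4 at an unadjusted p under 0.05, 1 called) and 7 of 8 neuronal markers (2 at that p, 0 called) were higher on the ketogenic diet in KO, with hippocampal sums of 1542 to 1812 and 1721 to 1971 CPM and neuronal sums of 10160 to 11890 and 11730 to 12260 CPM. No oligodendrocyte, microglial or astrocyte marker was at 0 in any library. Their part in the values of Cbs was not tested, and in bulk tissue fewer cells of a type and less RNA per cell cannot be told apart. Among libraries of female pattern, Cbs was 21.2 and 27.7 CPM in KO on the standard diet and 31.2 to 35.6 CPM in KO on the ketogenic diet.

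Cth (chr3:157894248-157925077), the enzyme after Cbs, was listed at 1.40 to 3.22 CPM in KO on the standard diet and at 2.64 to 4.75 CPM in KO on the ketogenic diet. WT libraries lay between 2.69 and 3.72 CPM, so every pair of groups overlapped. The lowest value, 1.40 CPM, was in KC893RL, which also had the lowest Cbs. Between diets in KO the log2 fold change was 0.47 ± 0.23 (SE), and it was 0.27 without KC893RL, 0.28 without KC934R and 0.77 in the 12 libraries with Xist and without Ddx3y.

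Mat2a (chr6:72432799-72439558) was the member with the smallest p between genotypes on the ketogenic diet. The WT libraries held 237 CPM in KC842L, 220 in KC843RL, 227 in KC844RR and 236 in KC846L. The KO libraries held 204 CPM in KC913RR, 210 in KC916RRL, 177 in KC934R and 209 in KC935LL. The groups did not overlap. As the share of all genes without overlap between these groups is not given, nothing is read from that. The log2 fold change was -0.20 ± 0.06 (SE), with an unadjusted p of 0.00418 and an adjusted p of 0.404 by edgeR's quasi-likelihood test, so it was not called. Across 14 alternatives that p ran from 0.17 to 0.751. In the same comparison 12 of 12 oligodendrocyte markers (6 at an unadjusted p under 0.05, median -0.40) and 5 of 5 blood genes (4 at that p, median -1.64) were lower in KO, with 0 called by edgeR in either list, and their part in the Mat2a difference was not tested. Oligodendrocyte sums were 1988 to 2635 CPM in WT and 1197 to 2268 CPM in KO, and blood sums 42.7 to 105 and 17.4 to 32.5 CPM. On the standard diet Mat2a differed by -0.05 ± 0.06 between genotypes, and the groups overlapped. Reads of Particl, a transcript on the opposite strand, could add to Mat2a, since they share 508 exon bases (11.3% of Mat2a's exons), the use of strand is not given and Particl reached 13.5 CPM. Ahcy, the next enzyme of the cycle, stayed between 11.5 and 14.3 CPM in all 16 libraries, and its log2 fold changes lay within -0.03 to 0.15 in the 4 pairwise comparisons.

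Psat1 (chr19:15904678-15947337), the aminotransferase of serine synthesis, had the reverse order to Cbs in KO. WT libraries on the standard diet held 99.0 CPM in KC890RL, 92.7 in KC894RLL, 92.4 in KC897RR and 88.2 in KC900RLL. The KO libraries on that diet held 133 CPM in KC872RL, 114 in KC873RR, 91.3 in KC888LL and 105 in KC893RL. The KO libraries other than KC888LL were above every WT library. The log2 fold change was 0.25 ± 0.09 (SE), with an unadjusted p of 0.015 and an adjusted p of 0.248 by edgeR's quasi-likelihood test. Leaving out KC888LL gave 0.33 (edgeR adjusted p = 0.0317), and across 14 alternatives that p ran from 0.0317 to 0.999. With KC888LL left out, edgeR called 1016 of all tested genes, beside 1 with all libraries. Without KC872RL, the library with the highest Psat1 and Gfap, the log2 fold change was 0.15, and in the 12 libraries with Xist and without Ddx3y it was 0.11. Summed astrocyte markers in KC872RL, KC873RR, KC893RL and KC888LL were 7714, 7215, 5583 and 5071 CPM, the same order as Psat1, beside 4898 to 5469 CPM in WT. These sums include Gfap, at 2327, 1340, 611 and 348 CPM in the same KO libraries. Sums without Gfap are not given, so nothing is read from the shared order. The part of the astrocyte markers in the Psat1 difference was not tested.

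With the ketogenic diet, Psat1 measured 89.98 CPM in KC842L, 89.0 in KC843RL, 92.6 in KC844RR and 90.4 in KC846L, the WT libraries. The KO libraries held 79.3 CPM in KC913RR, 78.1 in KC916RRL, 101 in KC934R and 90.5 in KC935LL. These KO values spread on both sides of the narrow WT range, and the genotypes differed by -0.05 ± 0.09 on the log2 scale (edgeR adjusted p = 0.895). Between diets in KO the log2 fold change was -0.34 ± 0.09 (SE), and the groups overlapped, through KC888LL on the standard diet and KC934R on the ketogenic diet. Here the order of the astrocyte sums was not that of Psat1: they were 6543 CPM in KC913RR, 5114 in KC916RRL, 6294 in KC934R and 5035 in KC935LL. Gfap, which is part of these sums, measured 2018, 288, 1059 and 295 CPM in the same libraries. In the 12 libraries with Xist and without Ddx3y the log2 fold change of Psat1 between diets in KO was -0.17, and with Xist as a covariate -0.23. In WT the diets differed by -0.04 ± 0.09.

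Phgdh, which opens serine synthesis, measured 59.5 to 66.8 CPM in WT and 61.5 to 79.8 CPM in KO on the standard diet, and 54.9 to 65.8 CPM in WT on the ketogenic diet. In KO on the ketogenic diet its 4 libraries ran from 34.6 CPM in KC913RR over 53.5 in KC935LL and 56.3 in KC916RRL to 74.6 in KC934R, the widest spread of any of its groups. Phgdh and Psat1 followed each other across the 16 libraries with Pearson's r = 0.68 and Spearman's rho = 0.76. Over 36 pairs of members without Cbs, permutation p-values adjusted by Benjamini-Hochberg were 0.241 for r and 0.0421 for rho. The permutations moved libraries across the 4 groups, so group differences shared by both genes can enter these p-values. Pearson's r was 0.63 after group means were subtracted. It was 0.50 without KC872RL and KC913RR, the libraries farthest from the median of Phgdh. Psph, the last step, ran from 10.96 to 18.2 CPM in the 15 libraries other than KC913RR and reached 20.9 CPM there. Psph shares 452 exon bases with the opposite-strand gene Cct6a, which reached 180 CPM, so its counts are uncertain where strand was not used.

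Shmt2, the mitochondrial serine hydroxymethyltransferase, was the member with the smallest p between diets in WT, where its groups did not overlap. It measured 15.6 CPM in KC890RL, 18.9 in KC894RLL, 18.6 in KC897RR and 19.5 in KC900RLL on the standard diet, and 21.7 in KC842L, 20.02 in KC843RL, 20.5 in KC844RR and 20.6 in KC846L on the ketogenic diet. The log2 fold change was 0.19 ± 0.12 (SE), and the adjusted p was 0.969 (edgeR's quasi-likelihood test, unadjusted 0.117). The share of all genes without overlap between these groups is not given, so nothing is read from the lack of overlap. The oligodendrocyte markers were lower between the same WT groups, as given above, and their part was not tested. In KO, Shmt2 ran from 17.8 to 21.6 CPM on the standard diet and from 18.03 to 28.4 CPM on the ketogenic diet. Shmt1, the cytosolic enzyme, varied most within WT on the standard diet, from 4.97 to 11.04 CPM, and its groups overlapped in every comparison. In that group its order was that of the choroid plexus sums, from 33.8 CPM in KC900RLL over 47.7 in KC890RL and 283 in KC897RR to 1065 in KC894RLL. In WT on the ketogenic diet, KC844RR had a choroid plexus sum of 1040 CPM and the lowest Shmt1 of its group, 8.37 CPM, and the part of this tissue was not tested. Shmt1 shares 184 exon bases (4.74%) with the opposite-strand gene Smcr8, which reached 55.4 CPM, and Shmt2 shares 32 (1.03%) with Ndufa4l2, which reached 2.09 CPM, so the same limit of strand holds for both. Mthfd2, the mitochondrial dehydrogenase of folate, ran from 3.92 to 6.66 CPM in 15 libraries and reached 9.57 CPM in KC913RR.

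Counted over the 10 members, 0 passed an adjusted p under 0.05 between genotypes on the standard diet, where 0.00572% of all tested genes did, by edgeR. There 2 members had an unadjusted p under 0.05, Cbs lower and Psat1 higher in KO, against 14.3% of all genes. DESeq2 put 0.967% of all genes below an adjusted p of 0.05 there, and among the members Cbs alone. The KO libraries helped to choose Cbs, so nothing is read from its part in these counts. On the ketogenic diet 0 members were called between genotypes, as against 0.0172% of all genes, and 1, Mat2a, had an unadjusted p under 0.05 against 9.22%. Between diets in WT 0 members were called (0.0114% of all genes) and 0 had an unadjusted p under 0.05 (5.46% of all genes). Between diets in KO, 1 member, Cbs, was below an adjusted p of 0.05, as were 1.16% of all genes, and 2 were below an unadjusted p of 0.05, as were 16.9%. These counts are fixed in part by the choice of Cbs on this comparison, and nothing is read from them. The same holds for the difference between the diet effects, which contains that comparison, with counts of 0 (0.0% of all genes) and 2 (7.48% of all genes). DESeq2 called 0 members between genotypes on the ketogenic diet (0.258% of all genes), between diets in WT (0.0687%) and for the difference between diet effects (0.0401%). The median log2 fold change over the members was 0.05, 0.06 and 0.02 in the first 3 comparisons and -0.01 between diets in KO, beside medians from -0.00 to 0.01 over all tested genes.

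**Figure D2:**
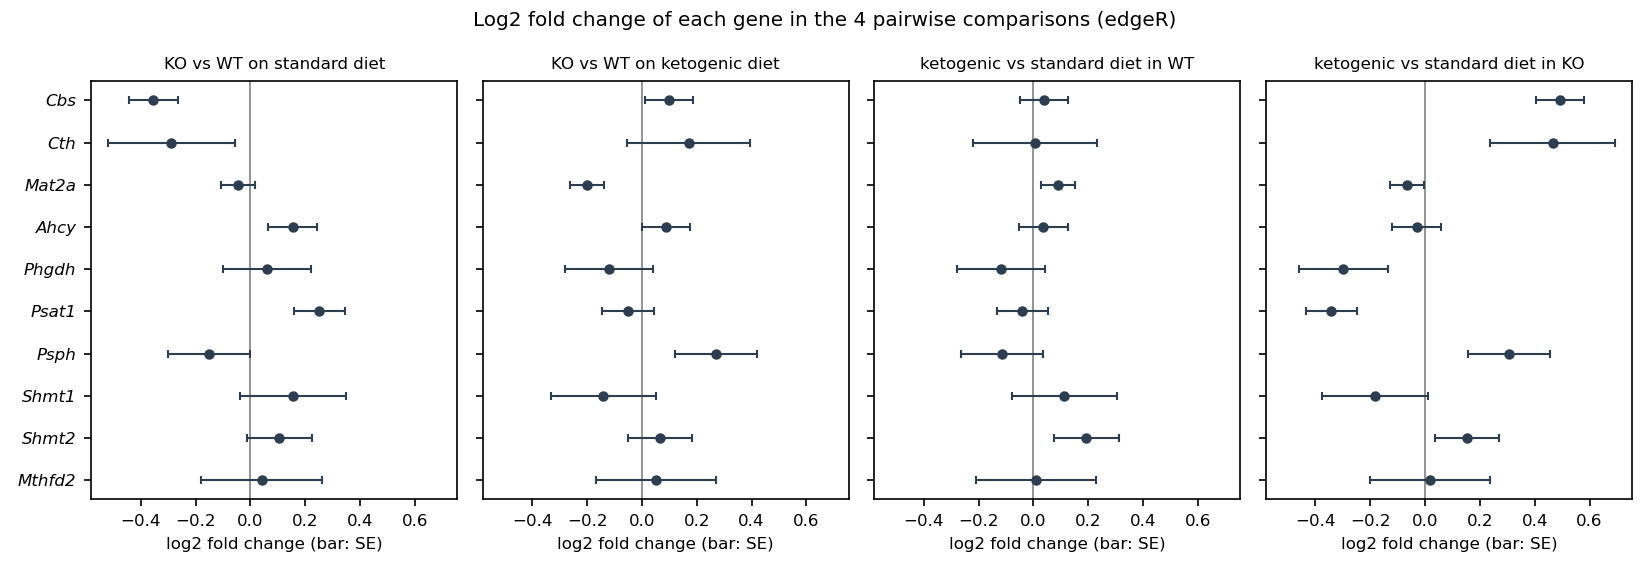
Log2 fold change of each gene (points, with bars of 1 SE) in the 4 pairwise comparisons, from edgeR on all 16 libraries. Cbs lies at -0.35 between genotypes on the standard diet and at 0.49 between diets in KO, while Psat1 lies at 0.25 and -0.34.

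Another 71 genes of the same pathways and of the ATF4 response were followed, of which 66 were tested and 0 were called by edgeR in any comparison. An unadjusted p under 0.05 was reached by 9 (13.6%) between genotypes on the standard diet, against 14.3% of all tested genes. It was reached by 6 (9.09%) in each of the comparisons of genotypes on the ketogenic diet, of diets in WT and of the diet effects, against 9.22%, 5.46% and 7.48% of all tested genes. Enoph1, an enzyme of methionine salvage, measured 46.9, 46.4, 44.2 and 41.8 CPM in WT and 31.6, 36.3, 39.9 and 35.0 CPM in KO on the standard diet. The groups did not overlap, which the rule for naming list genes required, so that is no result about Enoph1. The log2 fold change was -0.33 ± 0.07 (SE, edgeR unadjusted p = 9.3e-05, adjusted p = 0.141). Leaving out KC888LL gave -0.39 (edgeR adjusted p = 0.00307) and leaving out KC872RL -0.27 (adjusted p = 0.653). Over all tested genes edgeR called 1016 without KC888LL and 0 without KC872RL. DESeq2 called 1 list gene here, Enoph1, beside 0.967% of all genes. Under the ketogenic diet Enoph1 lay between 38.4 and 41.6 CPM in all 8 libraries. Mthfd2l, a mitochondrial relative of Mthfd2, was at 5.68 CPM in KO and 7.45 CPM in WT on the standard diet (log2 fold change -0.39 ± 0.13, edgeR adjusted p = 0.21), and Nupr1, a stress gene, at 2.19 and 1.14 CPM (0.95 ± 0.41, adjusted p = 0.302, and 0.60 without KC872RL).

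Between diets in WT, Aldh1l2, the mitochondrial formyltetrahydrofolate dehydrogenase, was at 4.10 CPM on the ketogenic and 7.19 CPM on the standard diet, or -0.81 ± 0.35 on the log2 scale (SE; edgeR, adjusted p = 0.885). Slc38a3, a glutamine transporter, differed by -0.24 ± 0.10 and Enoph1 by -0.14 ± 0.07, and neither was called. Neither overlapped between diets, but the rule for naming list genes required this, so it is no result about them. The part of the oligodendrocyte markers, lower between these WT groups, was not tested. For the difference between diet effects, Enoph1 (0.33 ± 0.09, edgeR adjusted p = 0.654) and Asns, which makes asparagine (0.31 ± 0.12, adjusted p = 0.654), had the smallest p of the lists; without KC913RR the value for Asns was 0.22. Between diets in KO, described only, Gclm of glutathione synthesis was lower by -0.21 ± 0.06, Slc1a4, a neutral amino acid transporter that carries serine, was higher by 0.27 ± 0.10, and Mthfd2l was higher by 0.31 ± 0.13 on the log2 scale. Each of these 3 was without overlap between the diets, which the rule for naming list genes required, so it is no result about them. An unadjusted p under 0.05 was reached in this comparison by 15 of 66 tested list genes (22.7%), against 16.9% of all tested genes. Of the 15, 6 were higher and 9 lower on the ketogenic diet. The lists were chosen with earlier results of these data known, so nothing is read from this share. Without KC913RR, at 101.6 CPM, the value for Slc1a4 was 0.12, and its groups stood apart by 65.5 against 65.02 CPM. Without KC872RL the value for Mthfd2l was 0.20. DESeq2 put 1 list gene, Atf4, below an adjusted p of 0.05 between diets in KO, as it did 3.88% of all genes, and 0 in the 3 other comparisons. The log2 fold change of Atf4 was 0.47 ± 0.15 (SE), with overlap, and 0.24 without KC913RR.

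The library KC913RR, KO on the ketogenic diet, differed from the rest in the ATF4 list, as seen after its values were known. Of 22 tested list genes, 12 had their highest level in it, beside 16.7% of all tested genes, and 3 (Ddit4, Phgdh and Pycr1) had their lowest level there, beside 15.8% of all tested genes. Atf4 measured 115 CPM in KC913RR and 51.4 to 71.6 CPM in the other 15 libraries. Asns measured 94.5 CPM against 62.6 to 82.6, and Chac1, which degrades glutathione, 8.30 CPM against 2.89 to 5.38. Among the members, Mthfd2 (9.57 CPM), Shmt2 (28.4 CPM) and Psph (20.9 CPM) were highest in it, while Phgdh, which is on the same list, was lowest in it at 34.6 CPM. Gldc of glycine cleavage was also lowest there, at 18.4 CPM against 31.7 to 40.1. Cbs, at 31.2 CPM, was inside the range of the other libraries. Gfap was 2018 CPM and the oligodendrocyte sum 1197 CPM, the lowest of the 16 libraries, and the part of either was not tested.

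**Figure D3:**
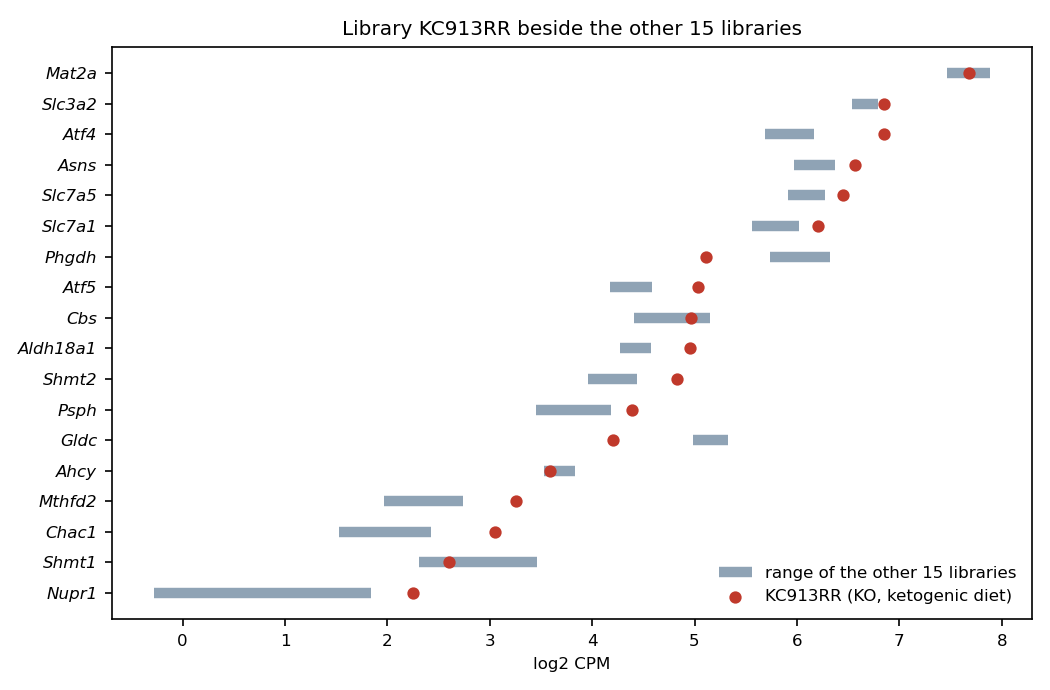
Level in log2 CPM of the 12 genes of the ATF4 list that were highest in KC913RR, of Cbs, Mat2a, Ahcy, Shmt1 and Phgdh, and of Gldc, in KC913RR (points) and the range of the other 15 libraries (bars). Atf4, Mthfd2, Shmt2 and Psph lie to the right of the bars, and Phgdh and Gldc to the left.

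Several relations among the members rested on KC913RR. The correlation of Shmt2 with Mthfd2 over 16 libraries was r = 0.64 and fell to 0.31 without it. That of Phgdh with Shmt2 was r = -0.63, and -0.06 without it. Adjusted permutation p-values over the 36 pairs were 0.241 and 0.362. Cbs and Psat1, described only, had r = -0.67 over 16 libraries and -0.15 after group means were subtracted, so they differed between groups in opposite directions but hardly within them.

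The 5 genes whose log2 CPM followed Cbs most closely over the 16 libraries, among 15420 genes with a mean of at least 1 CPM, were 4921539H07Rik (r = 0.96), Gm36447 (r = 0.89), Ascc2 (r = 0.88), Dpp9 (r = 0.87) and Stra6 (r = 0.86). 4921539H07Rik and Gm36447 are annotated as long noncoding RNAs, Ascc2 belongs to a helicase complex, Dpp9 is a peptidase and Stra6 a retinol transporter. After group means were subtracted, r with Cbs was 0.85 for 4921539H07Rik, 0.85 for Gm36447 and 0.90 for Ascc2, and 0.53 for both Dpp9 and Stra6. The first 3 thus followed Cbs from library to library within groups, as a description over the libraries that chose them. 4921539H07Rik, on chromosome 3 (chr3:58117053-58167616), measured 5.53, 4.04, 5.43 and 5.16 CPM in WT on the standard diet and 2.47, 2.04, 3.95 and 2.28 CPM in KO. The ketogenic diet libraries held 4.88, 5.18, 4.77 and 6.60 CPM in WT and 4.95, 6.66, 6.63 and 4.93 CPM in KO. In KC888LL, as for Cbs, it was the highest of the KO libraries on the standard diet, and in KC846L, again as for Cbs, the highest of the WT libraries on the ketogenic diet.

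**Figure D4:**
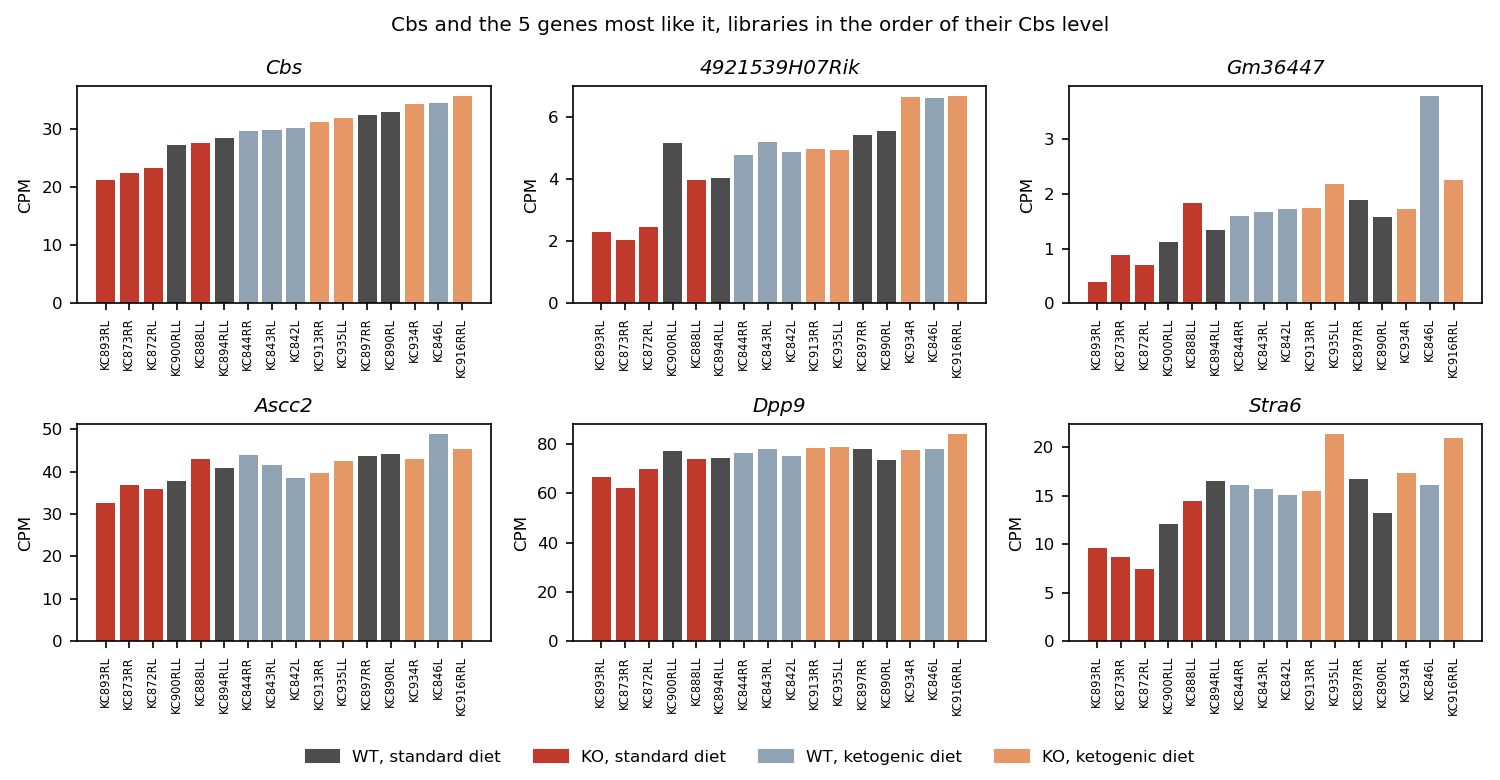
Level in CPM (vertical axes, each from 0) of Cbs and the 5 genes most like it in the 16 libraries, ordered from left to right by their Cbs level and coloured by group. The 3 libraries at the left of each panel are KO on the standard diet, and 4921539H07Rik is at 2.04 to 2.47 CPM in them.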

How the data were processed

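RNA sequencing of hippocampus gave 1 table of whole-number gene counts, deposited by the authors, with 1 column per animal. Per the submitters' processing notes, the build mm10 and DESeq2 were used, in roles not stated. Aligner, counter, annotation and use of strand are not given in the sources used here. Columns name genotype, diet and an animal tag, so each was assigned to its group. Positions and exon lengths are those of GENCODE M21 on GRCm38, which held 49056 of the 49315 identifiers, and promoters are RefSeq's.

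Genes were filtered with filterByExpr by group, scaled by TMM and fitted with edgeR 4.0.16 (R 4.3.3), a robust quasi-likelihood model with 1 coefficient per group and 12 residual degrees of freedom. Tests were two-sided, adjusted by Benjamini-Hochberg over 17469 genes and called at 0.05; standard errors came from the F statistic. CPM used effective library sizes, and log2 CPM a prior count of 2. The steps were tested on simulated data. P-values of the fitted models measure the spread between these animals.

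The members, the 7 gene lists and the markers were chosen with earlier results of these data known. List genes were named when they were among the 3 of smallest unadjusted p under 0.05 with groups that did not overlap (2 for the difference of diet effects). Alternatives were DESeq2 size factors, no filter, DESeq2 1.42.0, the compared groups alone, log2 CPM of Xist as a covariate, the 12 libraries with Xist and without Ddx3y, and each library left out. Correlations used 100000 permutations of the 16 libraries, made across groups.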

Additional observations from a re-analysis of the deposited data

Results flagged for a closer look

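Among 92 sets of 4 libraries of 1 gene in 1 group, 7 held a library far from the other 3 by Dixon's test, which chance gives in about 1 of 20 sets. In WT on the ketogenic diet, KC846L was high in Cbs, at 34.5 CPM against 29.7 to 30.1, and in Gm36447, at 3.78 CPM against 1.59 to 1.73. In KO on the ketogenic diet, KC934R was low in Mat2a, at 177 CPM against 204 to 210, and high in Slc38a3, at 72.8 CPM against 64.1 to 64.6. In KO on the standard diet, KC872RL was high in Shmt1, at 9.86 CPM against 8.45 to 8.60, and low in Mthfd2l, at 4.33 CPM against 6.002 to 6.22. In WT on the standard diet, KC900RLL was low in Phgdh, at 59.5 CPM against 65.8 to 66.8.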

How the results depend on the processing

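In the comparisons other than that of diets in KO, 586 of 630 alternative values of the members' log2 fold changes kept direction and side of the threshold, 41 turned and 3 became called, which were Cbs with DESeq2 and without KC888LL and Psat1 without KC888LL, each between genotypes on the standard diet. In the comparison of diets in KO, a description, the adjusted p of Cbs was at or above 0.05 in 5 of 14 alternatives. The log2 fold change of Cbs in those 5 was 0.44 to 0.52, beside 0.49. The adjusted p of Psat1 was below 0.05 in 3 alternatives. Of the 140 values in this comparison 7 changed sign, among them Ahcy, at 0.00028 without KC888LL and 0.011 without KC913RR. The others were Shmt2, at -0.0036 without KC913RR, and Mthfd2 in 4 alternatives, down to -0.31 without KC913RR. No paired analysis was possible because the columns carry none of the replicate numbers of the titles.

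Members called between genotypes on the standard diet were 0, 1 with DESeq2 (Cbs) and 0 to 2 with 1 library left out, the 2 (Cbs and Psat1) without KC888LL. Over all tested genes the calls were 1 in the main fit, 169 with DESeq2 and 1016 without KC888LL. Nothing is read from the part of Cbs, whose KO libraries helped to choose it. Members below an adjusted p of 0.05 between diets in KO, where Cbs was selected, were 2 with DESeq2. They were 0 with the compared groups alone, with Xist as a covariate and in the 12 Xist libraries. With 1 library left out they were 0 (without KC872RL or KC873RR) to 2 (without KC888LL or KC934R). Over all tested genes the calls were 677, 9, 7, 3, 28, 46, 1096 and 191 in the order given, beside 202. Members at an unadjusted p under 0.05 were 1 in the Xist libraries between genotypes on the standard diet, and 1 with the compared groups alone between diets in WT. They were 4 with no filter between diets in KO. For the difference of diet effects they were 1 with Xist as a covariate and 1 in the Xist libraries. With 1 library left out they ranged from 1 to 3, 1 to 2, 0 to 0, 2 to 4 and 1 to 3 in the 5 comparisons. The share of all genes at that p is given here for the main fit only, so nothing is read from these counts.

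Over all genes, calls between genotypes on the standard diet were 18 with no filter, 169 with DESeq2, 0 with the compared groups alone, 2 with Xist as a covariate and 0 in the Xist libraries, beside 1. On the ketogenic diet they were 11, 45 and 1 with no filter, with DESeq2 and in the Xist libraries, beside 3. Between diets in WT they were 12 with DESeq2, 11 with the compared groups alone, 1 with Xist as a covariate and 0 in the Xist libraries, beside 2. In KO they were 677, 9, 7 and 3 in the same order, beside 202. For the difference of diet effects they were 2 with no filter and 7 with DESeq2, beside 0. With 1 library left out they ranged from 0 to 1016, 1 to 13, 0 to 3, 28 to 1096 and 0 to 0; both of the highest counts were without KC888LL.

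The values that turned outside the diet comparison in KO were of members with no call in the comparison concerned. In the Xist libraries, Phgdh was at -0.021, Shmt2 at -0.061 and Mthfd2 at -0.017 between genotypes on the standard diet, Cth at -0.075 and Mthfd2 at -0.081 between diets in WT, and Shmt2 at 0.13 for the difference of diet effects. With Xist as a covariate, Cth was at -0.026 between diets in WT and Mthfd2 at -0.018 for the difference of diet effects, which was -0.0005155 with no filter. With 1 library left out, values between genotypes on the standard diet ranged from -0.030 to 0.11 for Phgdh, -0.014 to 0.35 for Shmt1 and -0.022 to 0.12 for Mthfd2. On the ketogenic diet they ranged from -0.016 to 0.29 for Cth, -0.31 to 0.050 for Phgdh, -0.0875 to 0.15 for Shmt2 and -0.27 to 0.21 for Mthfd2. Between diets in WT they ranged from -0.017 to 0.082 for Cbs, -0.086 to 0.075 for Cth, -0.18 to 0.012 for Psph, -0.059 to 0.31 for Shmt1 and -0.068 to 0.11 for Mthfd2. For the difference of diet effects they ranged from -0.20 to 0.041 for Shmt2 and -0.32 to 0.17 for Mthfd2. The cause was not tested.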
